A study of Homo sapiens with 4 samples.

Results

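The 4 human tropomyosin genes *TPM1*, *TPM2*, *TPM3* and *TPM4* were examined in A549 lung adenocarcinoma cells after silencing of circZFR. They are 4 of the 40205 genes listed in every library. *TPM4* was chosen by its higher level after silencing in these same libraries, so its values are given as a description with no test. *TPM1*, *TPM2* and *TPM3* were chosen by family name as its paralogs. The libraries come from cells transfected for 24 h with a negative control siRNA (NC, n = 2) or with an siRNA against circZFR (si-circZFR, n = 2). CircZFR is a circular RNA made from exons of *ZFR*, and all cells were grown in RPMI medium with fetal calf serum. The comparison asks which mRNAs differ between cells given the siRNA against circZFR and cells given the control siRNA. A549 is the line given by the article and the series' design text, while the labels of the samples give H1299, which is also derived from a human lung cancer. Nothing in the sources says whether the libraries of a group come from separate cultures, so p-values measure only the spread between these libraries, which may be technical.

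Tropomyosins are coiled-coil proteins that pair and line up head to tail along the groove of the actin filament. Their presence on a filament sets which myosins, severing proteins and end-capping proteins can act on it. Each gene gives several proteins through alternative promoters and exons, in long forms, which include those of muscle, and in short forms that are made in many other cells. In epithelial and cancer cells they are known for their place in stress fibres, adhesion and cell shape.

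The genes lie on 4 chromosomes of the GRCh38 build. *TPM1* spans 63042620 to 63071915 of chromosome 15, plus strand, with 19 protein-coding transcripts in GENCODE. *TPM2* spans 35681992 to 35690056 of chromosome 9, minus strand, with 6 such transcripts, and *TPM3* spans 154155308 to 154194648 of chromosome 1, minus strand, with 11. *TPM4* spans 16067021 to 16103002 of chromosome 19, plus strand, with 8. The coding sequences of the canonical transcripts have 855 bases in *TPM1* and *TPM2*, 858 in *TPM3* and 747 in *TPM4*. RPKM values are given per gene, so transcripts of one gene cannot be told apart.

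The paralogs are alike enough that their separation by short reads has to be shown. The stretch of 60 coding bases below starts at base 217 of the *TPM4* coding sequence. It was picked for the highest summed identity to the paralogs, so it is not a typical stretch. It is set beside the matching stretches of the paralogs and of *TPM4P2*, a processed pseudogene of *TPM4*. Sequences are from the GENCODE transcripts and the GRCh38 genome, 5′ to 3′ in the sense of the mRNA, and capitals mark the bases that differ from *TPM4*.
TPM4: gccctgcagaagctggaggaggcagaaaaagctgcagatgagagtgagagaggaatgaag
TPM1: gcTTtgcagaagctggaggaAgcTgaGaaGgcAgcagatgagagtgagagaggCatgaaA
TPM2: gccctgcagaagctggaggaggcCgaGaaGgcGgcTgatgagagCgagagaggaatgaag
TPM3: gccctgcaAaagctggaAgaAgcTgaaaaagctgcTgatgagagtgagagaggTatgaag
TPM4P2: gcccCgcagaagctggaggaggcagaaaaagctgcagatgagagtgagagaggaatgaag
Of these 60 bases, 51 were identical between *TPM4* and *TPM1*, 54 between *TPM4* and *TPM2* or *TPM3*, and 59 between *TPM4* and *TPM4P2*. When the coding sequence of each paralog was aligned to the transcripts of the others by blastn, the best local alignments covered 607 to 855 bases at 76.7% to 80.4% identity, and the longest identical runs had 20 to 38 bases. These comparisons held 0 identical windows of 100 bases, whereas *TPM4P2* shared 67 such windows with *TPM4*.

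The RefSeq table used here holds 3 start sites for *TPM4*, and the windows of 300 bases around them were searched for the CArG box, the site of serum response factor (*SRF*), on both strands. The window at the first start held 1 box, and the windows 8957 and 9478 bases further on held none, nor did the 5 windows of the other tropomyosin genes. The *TPM1* window lay around base 63048489 and the *TPM3* windows around 154183218 and 154178204, inside the gene spans given above. The outermost starts of *TPM1* and *TPM3* were therefore not searched. Of all 35116 RefSeq promoter windows of this length, 454 (1.29%) held a box. The 250 bases before that first start are shown because they hold the match (RefSeq, GRCh38.p14, chr19:16067288-16067537, plus strand), with the box in capitals. It begins 173 bases before the start.
TPM4 promoter: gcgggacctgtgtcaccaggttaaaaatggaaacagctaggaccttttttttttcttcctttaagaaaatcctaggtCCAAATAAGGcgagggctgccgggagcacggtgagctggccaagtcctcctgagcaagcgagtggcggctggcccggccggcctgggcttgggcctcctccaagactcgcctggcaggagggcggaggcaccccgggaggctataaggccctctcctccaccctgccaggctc
The match is a description of these letters. Which *TPM4* start was used in these cells cannot be read from values per gene.

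The libraries held between 11040050 and 12816868 mapped reads, recovered from the steps of the RPKM values. *ZFR*, the host gene of the circle, was at 26.0 and 32.2 scaled RPKM in NC and at 5.22 and 4.61 in si-circZFR, a log2 fold change (log2FC) of -2.34 (limma FDR = 0.0124, or 0.0777 without NC 2 and 0.0573 without si-circZFR 2, within a range of 0.0021 to 0.221 over the alternatives). Reads of the circle and of the linear mRNA are not separated in these values. The article reports, by RT-PCR, no detectable effect of its siRNA on *ZFR* expression. Here all reads on *ZFR* went from 1437 and 1740 in NC to 284 and 267 in si-circZFR. The part of the circle and that of the host mRNA in the differences below cannot be told apart. *CDKN2A*, which A549 cells are known to lack, had 0 reads in all libraries, which by itself does not tell the lines apart. The defining muscle markers *MYOD1*, *MYOG*, *MYH2* and *MYH7* were at 0, none of the 10 muscle markers reached 1 RPKM, and their summed level was 0.316 to 0.445 in NC and 0.167 to 0.392 in si-circZFR. Of 8 fibroblast markers, *COL1A2*, *DCN*, *LUM* and *FAP* were at 0, and the sum was 0.733 to 0.994 in NC and 1.39 to 2.01 in si-circZFR, most of it *COL1A1*. All 8 epithelial markers had reads, with sums of 3732 to 4819 in NC and 5041 to 5411 in si-circZFR. Most of each sum was the keratins *KRT7*, *KRT8* and *KRT18*, whereas *EPCAM* had only 4 reads and *CLDN7* 10 reads in each control. The log2 values of NC 1 correlated across the genes tested with Pearson's r of 0.977 with those of NC 2 and also of 0.977 with those of si-circZFR 1 (genes are not independent replicates), so NC 2 stood as far from NC 1 as a library of the other group did.

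Values below are scaled RPKM, reads on a gene set against its length and the mapped reads of the library, divided by a trimmed-mean factor for each library. Genes with at least 1 CPM (reads set against the mapped reads alone) in at least 2 libraries were tested by limma on log2(scaled RPKM + 1), on which scale log2FC is given, with Benjamini-Hochberg adjustment (FDR). All 4 tropomyosin genes were among the 14808 genes tested. Of these, 170 passed FDR < 0.05 and |log2FC| > 1 (1.15%), 62 of them higher (0.419%) and 108 lower. Without scaling between libraries the split turned to 152 higher and 91 lower, and the median log2FC of all genes moved from 0.0068 to 0.15. With the trend with gene length removed it was 112 higher and 79 lower. By limma-voom on the recovered reads 169 genes were higher and 198 lower (367 in all, 2.48%). The number also rested on single libraries, with 1004 genes passing without NC 1, 0 without NC 2 (2911 at an unadjusted p under 0.05), 58 without si-circZFR 1 and 4 without si-circZFR 2.

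*TPM4*, the member of the family that mainly gives short non-muscle tropomyosin, was at 36.7 in NC 1 and 38.0 in NC 2, and at 169.0 in si-circZFR 1 and 178.6 in si-circZFR 2. Both si-circZFR libraries lay far above both controls, and the libraries within each group lay close together. The group means were 37.3 ± 0.985 and 173.8 ± 6.79 (SD, n = 2 each), which is 4.65-fold higher, or a log2FC of 2.19 with a standard error (SE) of 0.17. The 4 pairings of a si-circZFR with an NC library gave ratios of 4.44 to 4.87. The values rest on 1137 and 1155 reads in NC and 5154 and 5800 reads in si-circZFR, so counting error was at most 2.97% of any of them. Only 4 of the 14808 genes tested had a log2FC as high, *TPM4* included, which is a rank of the value it was chosen on. Among them were *TPM4P3*, a pseudogene that shares sequence with *TPM4*, and *MIR4730*, on only 2 to 19 reads. Among the genes tested, the level of *TPM4* was at percentile 88.0 to 89.0 in NC and at percentile 98.2 to 98.3 in si-circZFR. Of the 1719 genes that had at least the level of *TPM4* in NC, 6 had a log2FC above 1 and only *TPM4* had one above 2. The next was *NEAT1*, a nuclear long non-coding RNA, at 1.66. This comparison too is a description, since *TPM4* was chosen for its rise and its own level set the cut-off. In bulk RNA, a change in the number of cells that express a gene and a change in its RNA per cell cannot be told apart.

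**Figure D1:**
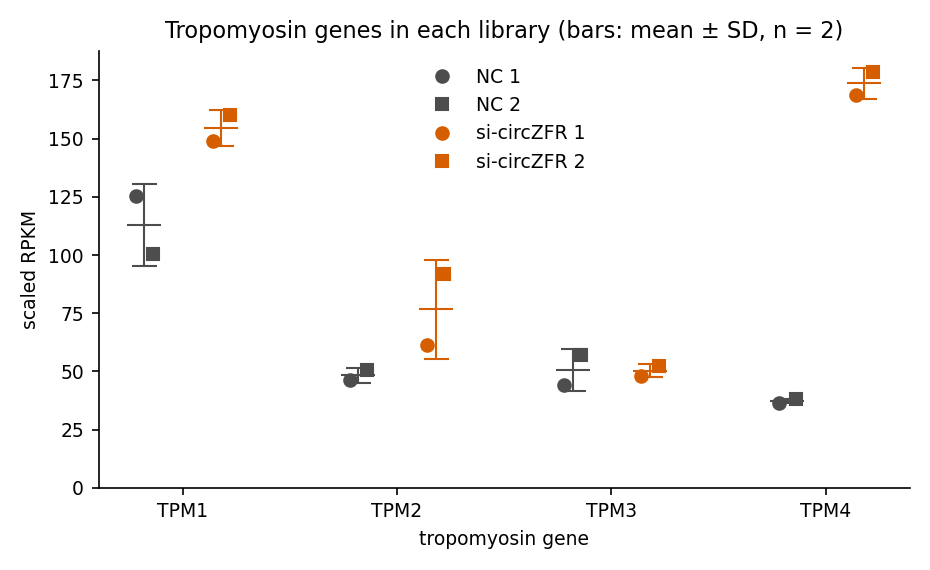
Scaled RPKM (y axis, from 0) of each tropomyosin gene (x axis) in each library, with NC in grey, si-circZFR in orange, circles for replicate 1 and squares for replicate 2, and bars for the mean ± SD (n = 2). TPM4 lies at 36.7 and 38.0 in NC and at 169.0 and 178.6 in si-circZFR, whereas the groups overlap for TPM3.

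*TPM1*, the most abundant tropomyosin gene in the controls, was at 125.5 and 100.5 in NC and at 148.9 and 160.0 in si-circZFR. The groups did not overlap, but the controls differed from each other by more than the si-circZFR libraries did. The means were 113.0 ± 17.7 and 154.5 ± 7.80, which is 1.37-fold. The log2FC of 0.46 (SE 0.21, 95% interval -0.033 to 0.94) did not pass by limma (FDR = 0.248). It was 0.60 without NC 1 and 0.29 without NC 2. Its interval allows a fold between 0.977 and 1.92.

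*TPM2*, which is best known from slow muscle and from smooth muscle and is also made in many other cells, was at 46.1 and 50.6 in NC and at 61.6 and 91.7 in si-circZFR. Here the controls were close and the si-circZFR libraries were 1.49-fold apart. The means were 48.4 ± 3.19 and 76.6 ± 21.3, which is 1.58-fold. The log2FC of 0.63 (SE 0.23, 95% interval 0.088 to 1.17) did not pass by limma (FDR = 0.173). It was 0.92 without si-circZFR 1 and 0.35 without si-circZFR 2, so its size rests on the second si-circZFR library. The interval allows a fold of 1.06 to 2.24.

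*TPM3*, which gives slow muscle tropomyosin and widely made short forms, was at 44.1 and 57.0 in NC and at 48.2 and 52.3 in si-circZFR. Both si-circZFR values lay between the controls, which were 1.29-fold apart. The means were 50.5 ± 9.07 and 50.2 ± 2.84, a ratio of 0.994, and the log2FC was 0.0018 (SE 0.19, limma FDR = 0.997). Its 95% interval runs from -0.45 to 0.45, or from 0.732-fold to 1.37-fold, so a change within these bounds was not detectable with these libraries. The sign of so small a value turned with the scaling, to -0.0014 with median-of-ratios factors and to -0.12 with the trend with gene length removed.

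Both si-circZFR libraries lay above both controls for *TPM1*, *TPM2* and *TPM4*. This order was found in 4163 of all 14808 genes (28.1%), and the opposite order in 4124 (27.8%), so for *TPM1* and *TPM2* it is a common one. Among the paralogs, only *TPM2* had an unadjusted p under 0.05, as 3337 genes did (22.5%).

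The order of the family differed between the groups. In NC 1 it ran *TPM1*, *TPM2*, *TPM3*, *TPM4* from high to low, and in NC 2 *TPM2* and *TPM3* changed places. *TPM2* and *TPM3* did not differ beyond their spread in NC, whereas *TPM1* was above and *TPM4* below the others in both controls. In both si-circZFR libraries the order was *TPM4*, *TPM1*, *TPM2*, *TPM3*, and no neighbours overlapped, although the lowest *TPM4* value (169.0) and the highest *TPM1* value (160.0) were near each other. RPKM is per length, and the lengths behind these values were 2617 bases for *TPM1*, 2089 for *TPM2*, 7099 for *TPM3* and 2645 for *TPM4*.

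The summed tropomyosin level was 252.4 and 246.1 scaled RPKM in NC and 427.7 and 482.5 in si-circZFR. The controls were within a few percent of each other and both si-circZFR libraries were well above them. The means were 249.3 ± 4.43 and 455.1 ± 38.7 (SD, n = 2 each), which is 1.83-fold. *TPM4* made up 136.4 of the difference of 205.8 scaled RPKM (66.3%), *TPM1* 41.5 (20.1%) and *TPM2* 28.2 (13.7%), while *TPM3* took -0.297 (-0.144%). Without *TPM4* the sums were 215.7 and 208.1 in NC and 258.7 and 303.9 in si-circZFR. These groups did not overlap either, with means of 211.9 ± 5.41 and 281.3 ± 31.9 (1.33-fold). Since the sum holds *TPM4*, it was not tested.

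Shares of the sum are free of the scaling between libraries. For *TPM4*, which was chosen for its rise, the share is a description only. The share of *TPM4* was 14.5% and 15.5% in NC and 39.5% and 37.0% in si-circZFR. The share of *TPM1* was 49.7% and 40.8% in NC and 34.8% and 33.2% in si-circZFR. That of *TPM3* was 17.5% and 23.1%, then 11.3% and 10.8%. The shares of *TPM1* and *TPM3* were thus lower in both si-circZFR libraries although their levels were not, because the sum was larger. *TPM2* held 18.3% and 20.6% of the sum in NC and 14.4% and 19.0% in si-circZFR, which overlap. In CPM, which is not divided by length, *TPM3* held the largest mean share in NC (41.9%) and *TPM4* went from 11.6% to 33.3%.

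**Figure D2:**
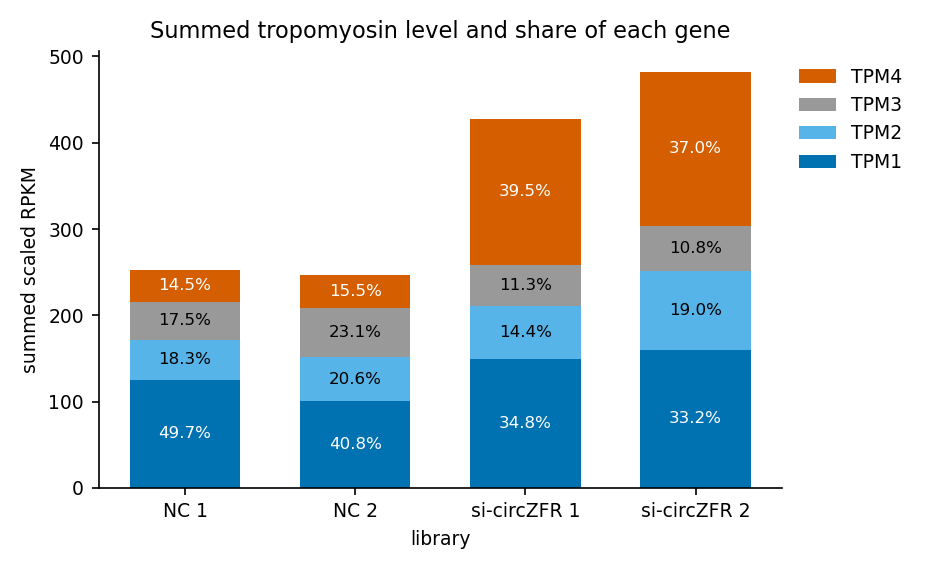
Summed scaled RPKM of the 4 tropomyosin genes (y axis, from 0) in each library (x axis), with the colours marking the genes and the numbers giving each gene's percent of that library's sum. TPM4 takes 14.5% and 15.5% of the sum in NC and 39.5% and 37.0% in si-circZFR.

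The ratio of *TPM4* to each paralog within a library restates these levels. Since *TPM4* was chosen for its rise and no paralog rose as much, higher ratios follow from the values above and are no separate result. *TPM4* was 0.292 and 0.379 of *TPM1* in NC and 1.13 and 1.12 times *TPM1* in si-circZFR. Against *TPM2* it was 0.795 and 0.751 in NC and 2.74 and 1.95 in si-circZFR. Against *TPM3*, the paralog with the log2FC nearest to 0, it was 0.831 and 0.668 in NC and 3.50 and 3.42 in si-circZFR. For each of the 3 ratios, the si-circZFR libraries lay above both controls. Set against the cytoplasmic actins *ACTB* and *ACTG1*, which form the filament itself, there were 5.81 and 4.55 units of tropomyosin RPKM per 100 units of actin RPKM in NC and 9.28 and 11.0 in si-circZFR. The actin sum itself overlapped between the groups.

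RefSeq lists 12 tropomyosin pseudogenes, copies of processed mRNA that are not known to make protein. The files list 11 of them, 6 had at least 10 reads in some library, and 5 were tested. Such copies bear on the values of their parent genes, since a read that lies in a stretch shared by both can be given to either. *TPM4P2* was 94.1% identical to the *TPM4* mRNA over 2081 bases, with a longest identical run of 153 bases. *TPM4P3* was 94.1% identical over 2065 bases, with a run of 195 bases and 96 identical windows of 100 bases. The lengths behind the RPKM values were only 609 bases for *TPM4P2* and 626 for *TPM4P3*. Whether the identical stretches lie in the parts on which reads were counted is not known. How reads with several matches were handled is not given in the sources used here.

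The *TPM4* copies had higher values in si-circZFR, as *TPM4* itself did. *TPM4P3*, listed in the files as *LOC100129096*, had 60 and 55 reads in NC and 275 and 340 in si-circZFR. Its level was 8.17 and 7.65, then 38.1 and 44.2 scaled RPKM, a log2FC of 2.24 (SE 0.17). *TPM4P2*, listed as *LOC643634*, had 82 and 50 reads in NC and 187 and 256 in si-circZFR, at 11.5 and 7.15, then 26.6 and 34.2 scaled RPKM, a log2FC of 1.63 (SE 0.25). Both si-circZFR libraries were above both controls for each copy. The reads of *TPM4P3* came to 4.76% to 5.86% of those of *TPM4* and the reads of *TPM4P2* to 3.63% to 7.21%. *TPM4P1*, which has no identical window of 100 bases with *TPM4*, had 0 or 1 reads per library. Since these copies share sequence with *TPM4* and follow the gene that was chosen, they are not independent of it, and no test is given. With the reads of the copies added to *TPM4*, its share of the sum in NC was 16%.

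Of the *TPM3* copies, 3 were tested and none passed, as for *TPM3* itself. *TPM3P5*, 95% identical to the *TPM3* mRNA over 2117 bases, had 204 and 206 reads in NC and 201 and 229 in si-circZFR (log2FC 0.026). *TPM3P8*, 96.4% identical over 2071 bases, had 85 and 93 reads, then 81 and 76 (log2FC -0.17). *TPM3P9* had 215 and 149 reads, then 223 and 287 (log2FC 0.40, limma FDR = 0.320). *TPM3P6* had 5 to 12 reads per library and was not tested.

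**Figure D3:**
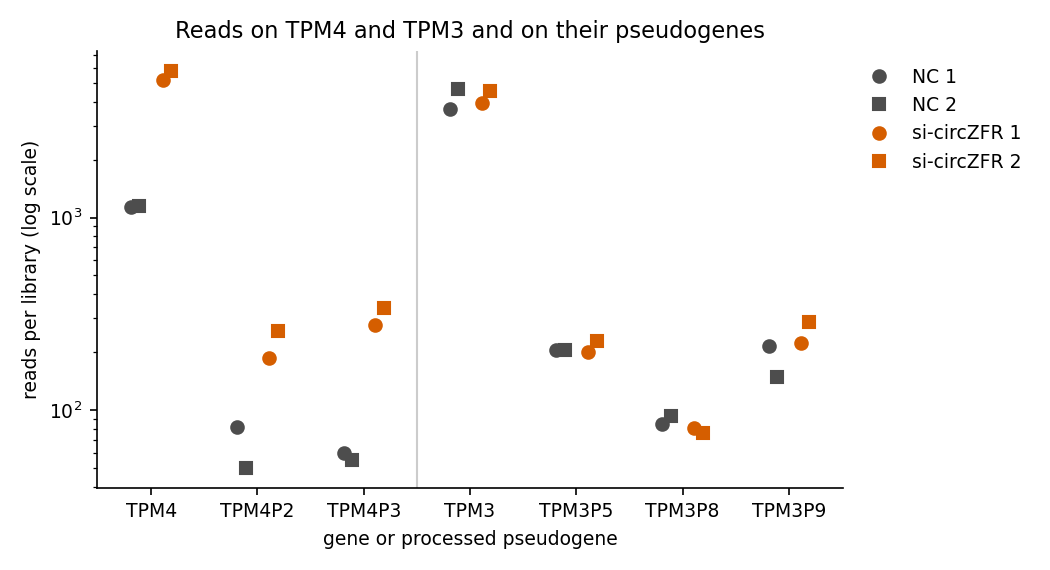
Reads per library (y axis, log scale) on TPM4 and TPM3 and on those of their processed pseudogenes that were tested (x axis), with NC in grey, si-circZFR in orange, circles for replicate 1 and squares for replicate 2. TPM4P3 goes from 60 and 55 reads in NC to 275 and 340 in si-circZFR, while TPM3P5 keeps 201 to 229 reads in every library.

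Genes that work on the same filaments were counted in lists. Each list is read beside all genes tested, whose median log2FC was 0.0068 and of which 1.15% passed (62 genes higher and 108 lower). Of 6 actins, 3 were tested and none passed (0), with a median of -0.33. *ACTB*, the main cytoplasmic actin, was at 1229 and 1458 in NC and 1109 and 1024 in si-circZFR (log2FC -0.33, limma FDR = 0.628), and *ACTG1* had a log2FC of -0.03, whose sign turned without scaling (0.16) and with the trend with gene length removed (0.0097). *ACTA2*, the smooth muscle actin, was low, with a mean of 3.26 ± 0.015 in NC and 1.39 ± 0.400 in si-circZFR (log2FC -0.84, limma FDR = 0.0737).

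Of 16 end cappers and side binders, which hold filament ends or lie along the filament as tropomyosin does, 11 were tested and 0 passed. Both si-circZFR libraries lay above both controls for 5 of the 11 and below them for 3, beside 28.1% and 27.8% of all genes tested. The median was -0.12, and 0.063 without scaling, where all genes had 0.15. The tropomodulin *TMOD2*, which caps the slow end of tropomyosin-coated filaments, had 20 and 14 reads in NC and 33 and 41 in si-circZFR, a fold of 2.12 between the means. Its log2FC of 0.45 (limma FDR = 0.134) is pulled towards 0 by the pseudocount, and was 0.96 with a pseudocount of 0.1 and 1.08 by limma-voom, with FDR from 0.0637 to 0.651 over the alternatives. The calponin *CNN2* had 0.31, the capping protein subunit *CAPZB* -0.27, and the transgelins *TAGLN* and *TAGLN2* 0.43 and -0.37. *TAGLN*, also low, had 0.66 by limma-voom. Of 8 troponins, the calcium sensors that sit on tropomyosin in striated muscle, only *TNNT1* and *TNNI3* were tested, with log2FC of -0.02 and 0.31 (0.48 for *TNNI3* by limma-voom) and a median of 0.14, and 0 passed. The sign of the *TNNT1* value turned to 0.16 without scaling and to 0.20 with the trend with gene length removed.

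Of 12 genes of non-muscle myosin II and its regulators, the motor that pulls on tropomyosin-coated filaments, 0 passed and the median was 0.10. The heavy chains *MYH9* and *MYH10* had log2FC of -0.20 and 0.42, the light chains *MYL6* and *MYL12B* -0.06 and -0.67, and the kinase *ROCK1* 0.66 (limma FDR = 0.113). *MYL12B* was at 136.4 and 263.3 within NC. Its log2FC was -1.16 without NC 1, where it passed (FDR = 0.0221), and -0.20 without NC 2, with FDR from 0.0221 to 0.753 over the alternatives. *MYL6* was at 313.4 and 632.8 within NC, so the controls lay further apart than the group means, and its sign turned without scaling (0.13) and with the trend with gene length removed (0.31).

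Of 18 severing and branching factors, 0 passed and the median was 0.076. *CTTN*, cortactin, which stabilises branched actin, was at 64.2 and 36.7 in NC and at 104.4 and 135.8 in si-circZFR. Its groups did not overlap and its log2FC was the highest of the lists, 1.28 (SE 0.29), but it missed the threshold by limma (FDR = 0.0792). By limma-voom it passed (FDR = 0.0453), as it did without NC 1 (FDR = 0.0153), within a range of 0.0153 to 0.398 over the alternatives. The severing factors *CFL1* and *DSTN* had log2FC of -0.51 and -0.02, the cofilin phosphatase *SSH1* 0.50, and *WASF2*, which activates branching, -0.47. For *DSTN* the sign turned to 0.16 without scaling and to 0.016 with the trend with gene length removed.

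Of 20 nucleators and bundlers, 0 passed, and the median was 0.030, or -0.040 with the trend with gene length removed. The formin *DIAPH1*, which makes unbranched filaments, was at 31.3 and 29.3 in NC and at 49.7 and 53.2 in si-circZFR (log2FC 0.74, SE 0.16, limma FDR = 0.0716). The formin *FHOD1* had a log2FC of 0.43, palladin (*PALLD*) 0.41, the crosslinker *ACTN4* -0.34 and filamin A (*FLNA*) 0.11, which turned to -0.021 with the trend with gene length removed.

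*SRF* and its cofactors, which bind or act at CArG boxes, counted 6 genes with a median of 0.050, of which 1 passed, lower. *ELK3*, a ternary complex factor that can repress *SRF* targets, fell from 32.9 and 33.4 in NC to 17.3 and 13.7 in si-circZFR (log2FC -1.06, SE 0.18, limma FDR = 0.0499). *SRF* had a log2FC of 0.28, its actin-sensing coactivator *MKL1* 0.05 and *ELK1* -0.31. For *MKL1* the sign turned to -0.036 with the trend with gene length removed.

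Of 12 splicing regulators of tropomyosin exons, 10 were tested, with a median of 0.033, and 1 passed, lower. *RBFOX2*, an RNA-binding protein that sets exon choice in many cytoskeletal transcripts, fell from 14.4 and 14.0 in NC to 6.10 and 5.99 in si-circZFR (log2FC -1.11, SE 0.17, limma FDR = 0.0451). *PTBP1* had a log2FC of 0.12, *SRSF1* 0.14, *MBNL2* -0.60 and *RBM4* -0.62, and none of these passed. The calls of *ELK3* and *RBFOX2* were near the threshold. Both were lost without NC 2, without si-circZFR 1 and without si-circZFR 2, and over all alternatives the FDR ran from 0.0244 to 0.338 for *ELK3* and from 0.0187 to 0.281 for *RBFOX2*.

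**Figure D4:**
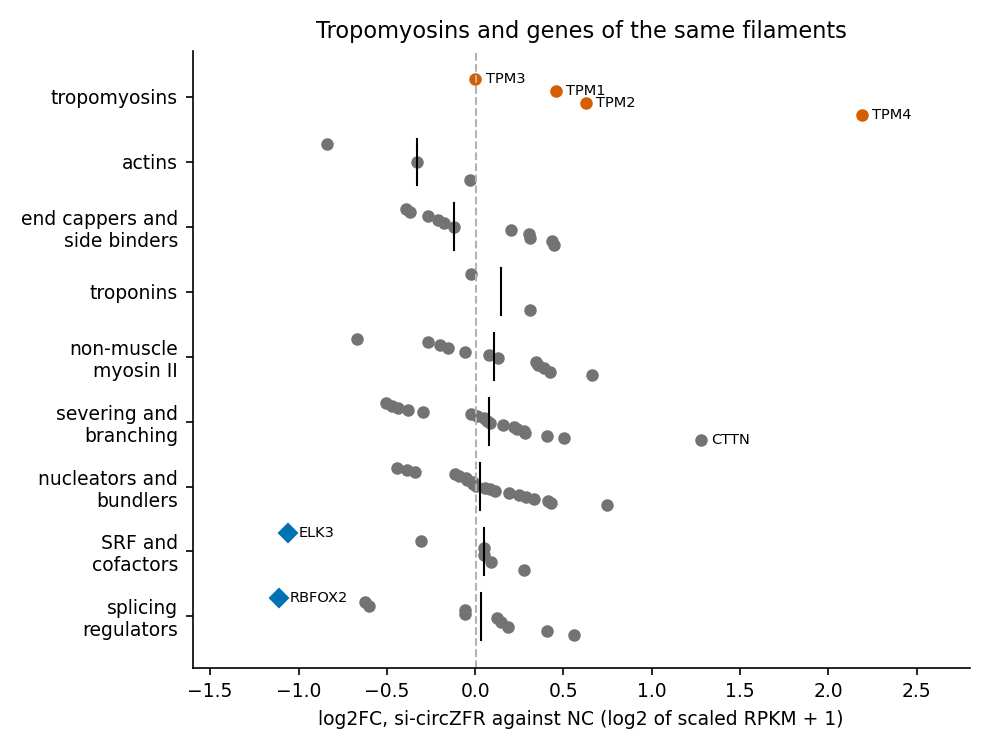
Log2FC of si-circZFR against NC (x axis, on the log2 of scaled RPKM + 1) for the tropomyosin genes (orange) and for the tested members of each list (grey, with blue diamonds for those that passed), 1 row per list. Black bars are list medians and the dashed line is the median of all genes tested (0.0068). TPM4, which was chosen for its rise, lies at 2.19, beyond every member of the lists. Of these members, CTTN is highest at 1.28, and ELK3 and RBFOX2 lie near -1.1.

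Among the 8 epithelial markers, *EPCAM*, an adhesion molecule, rose from 0.397 and 0.406 in NC to 1.82 and 2.65 in si-circZFR (log2FC 1.20, limma FDR = 0.0451). With 4 reads in each control, *EPCAM* was below 1 CPM there and met the filter only through si-circZFR, where it was higher. Its FDR is thus not independent of that direction. The fold between the means was 5.57, and the log2FC was 2.20 with a pseudocount of 0.1 and 2.32 by limma-voom. It rests on 4 reads in each control and on 18 and 28 reads in si-circZFR, did not pass by limma-voom (FDR = 0.0702) or without NC 2 (FDR = 0.104), within a range of 0.0226 to 0.242 over the alternatives, and fell under the filter without either si-circZFR library. *CDH1*, E-cadherin, was at 10.0 ± 2.0 in NC and 21.4 ± 0.259 in si-circZFR (log2FC 1.04, limma FDR = 0.0545, with 0.0159 to 0.314 over the alternatives). *CLDN4*, a tight junction claudin, was at 4.80 ± 0.508 and 2.78 ± 0.561 (log2FC -0.63). *KRT19* had a log2FC of 0.70, *KRT8* 0.37, *KRT18* 0.34, *CLDN7* 0.25 and *KRT7* 0.20, and none of these passed. *CLDN4* alone of the epithelial markers was lower. The part of these genes in the tropomyosin values was not tested.

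The genes most like *TPM4* in pattern were found by the distance over the 4 libraries between log2 values centred on the NC mean. The nearest was its own copy *TPM4P3*, at a distance of 0.152. Among the next were the galactosyltransferase *B4GALT1* at 0.536, *IFT27*, a gene of ciliary transport, at 0.546 and *MIR4730* at 0.579, the last on only 2 to 19 reads. Of these, *B4GALT1* was nearest to *TPM4* in level too, at 27.4 and 23.5 in NC and 90.5 and 95.4 in si-circZFR. The likeness rests on 4 libraries, and none of the paralogs was among these genes.

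The nearest tested genes beside *TPM4* on chromosome 19 did not pass. *CYP4F11*, a cytochrome P450 gene whose end lies 132154 bases before *TPM4*, was at 48.5 and 31.7 in NC and 39.6 and 33.7 in si-circZFR (log2FC -0.10, limma FDR = 0.829), with 0.081 without scaling. *RAB8A*, a small GTPase gene that begins 8887 bases after *TPM4*, was at 16.3 and 25.6 in NC and 16.9 and 13.4 in si-circZFR (log2FC -0.41, limma FDR = 0.354). The groups overlapped for both neighbours, unlike for *TPM4*.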

How the data were processed

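RNA of 2 NC and 2 si-circZFR libraries had been sequenced on an Ion Proton instrument. The authors deposited RPKM values for 40205 genes in 1 file per library. The article names hg38 and the submitters' processing notes GRCh37. The aligner, the annotation and the treatment of reads with several matches are not given in the sources used here. The article reports removal of batch effects by SVA and a differential expression test made for counts. Limma was used here because the deposited values are RPKM.

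Reads were recovered by a search for the gene length that turns all RPKM values of a gene into whole reads (tolerance 1e-06). This held for 24284 of 24289 genes above 0 (99.98%). RPKM values were divided by trimmed-mean factors (30% of ratios and 5% of levels trimmed), which were 0.981 and 0.896 in NC and 1.02 and 1.11 in si-circZFR. Genes with at least 1 CPM in at least 2 libraries were tested by limma with a trended prior variance on log2(scaled RPKM + 1). Limma-voom on the recovered reads called 367 genes. The filter on reads was preferred to one on RPKM because the latter admits very short genes with few reads. The fits were tested on simulated data.

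The family, the lists, the rule for named genes and the settings were chosen with earlier results of these data known. The rule names the tropomyosin genes, their pseudogenes with at least 10 reads, the members of each list that passed, the 3 with the smallest p and the 2 most abundant, cell markers, the 5 genes nearest to *TPM4* in pattern and its tested neighbours. Results for some genes under this rule are left out. Alternatives covered the scaling, the pseudocount (0.1), the filter, limma-voom, the prior trend, the replicate number as a block, a correction for length, CPM in place of RPKM, pseudogene reads and each library left out. Mapped reads per library ranged from 11040050 to 12816868. Intervals for counting cover counting error only. Positions and promoters came from GENCODE and RefSeq (GRCh38). R 4.3.3, limma 3.58.1, Python 3.11.15, numpy 2.4.6, pandas 2.3.3, matplotlib 3.10.9 and blastn 2.17.0 were used.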

Additional observations from a re-analysis of the deposited data

How the results depend on the processing

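With 2 libraries per group, the spread of a group is known from 1 pair only, whereas counting error was at most 2.97% of any tropomyosin value. The number of genes passing moved from 170 to 59 with a pseudocount of 0.1, 8 with a filter on RPKM, 0 without a filter (limma, 3675 at an unadjusted p under 0.05), 367 with limma-voom and 40 without a prior trend, and ran from 0 to 1004 with each library left out. The deviations of NC 1 and si-circZFR 1 from their group means had a correlation of 0.085 over 14808 genes. With 2 libraries per group this is 1 contrast, so it cannot tell whether same-numbered libraries were prepared as pairs. With the replicate block 43 genes passed, and among the results named here the block took the calls of *ELK3*, *RBFOX2* and *EPCAM*. The cause of these differences was not tested.

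Of the tropomyosin genes, *TPM4* had a log2FC of 2.37 without scaling and 2.15 to 2.23 with each library left out. *TPM3* turned to -0.0014 with median-of-ratios factors and to -0.12 with the length trend removed, and ran from -0.20 to 0.18 with each library left out, with -0.048 without si-circZFR 2. *TPM1* and *TPM2* kept their direction and missed the threshold in every alternative run. The summed level was 1.62-fold in CPM and 2.08-fold without scaling, and that of *TPM1* to *TPM3* 1.52-fold without scaling. In CPM the mean shares in NC and si-circZFR were 34.7% and 29.3% for *TPM1*, 11.8% and 11.5% for *TPM2*, 41.9% and 25.9% for *TPM3*, and 11.6% and 33.3% for *TPM4*. With pseudogene reads added, *TPM1* had 32.3% and *TPM3* 11.9% in si-circZFR, and *TPM4* 16% in NC.

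Without scaling, the list medians were -0.14 for actins, 0.063 for end cappers, 0.27 for myosin II, 0.26 for severing, 0.21 for nucleators and 0.20 for splicing regulators, with all genes at 0.15. The actin median was -0.12 without a filter, and that of nucleators -0.040 with the length trend removed. With each library left out, medians ran from -0.47 to -0.21 (actins), -0.22 to 0.21 (end cappers), -0.23 to 0.50 (troponins), 0.063 to 0.23 (myosin II), -0.088 to 0.23 (severing), -0.034 to 0.12 (nucleators) and -0.20 to 0.25 (*SRF*). Passing members then ran from 0 to 1 in the lists of myosin II, severing factors, *SRF* cofactors and splicing regulators. Limma-voom passed 1 severing factor. *SRF* cofactors and splicing regulators had 0 without scaling, with a pseudocount of 0.1, with the RPKM filter, without a filter, without the prior trend and with the replicate block.

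Signs also turned for small values of other genes. Without scaling these were *ACTG1* (0.16), *TNNT1* (0.16), *MYL6* (0.13), *DSTN* (0.16) and *CYP4F11* (0.081). With the length trend removed they were *ACTG1* (0.0097), *TNNT1* (0.20), *MYL6* (0.31), *DSTN* (0.016), *FLNA* (-0.021) and *MKL1* (-0.036). With each library left out, ranges were -0.22 to 0.14 for *ACTG1*, -0.028 to 0.64 for *TNNI3*, -0.43 to 0.36 for *TNNT1*, -0.58 to 0.44 for *MYL6*, -0.31 to 0.24 for *DSTN*, -0.029 to 0.27 for *FLNA*, -0.074 to 0.16 for *MKL1*, -0.091 to 0.35 for *PTBP1*, -0.024 to 0.29 for *SRSF1*, -0.40 to 0.18 for *CYP4F11* and -0.012 to 0.076 for *TPM3P5*.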
